A study of Mus musculus with 4 samples.

Results

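The difference between WT Qa2+ and WT Qa2- thymocytes describes the last steps of normal CD4 single-positive maturation in the mouse thymus. It rests on the arrays labelled WT Qa2+ and WT Qa2-, which are 2 of the 4 arrays of the series, chosen by their labels and not by any measured value. Both populations were sorted as CD4+ CD8- cells from thymi of miR-142+/+ mice of strain C57BL/6n, 8 weeks of age, and each is labelled as a pool of 3 females and 2 males. The Qa2- cells were CD69+ and the Qa2+ cells were CD69-, and CD8+ cells had been depleted with beads before the sort. The other 2 arrays hold the same sorts from pooled miR-142-/- mice of the same strain and age (1 female and 3 males), which lack the microRNA gene Mir142, and serve only to set the WT differences beside a second pair of arrays. Each group is 1 array of pooled animals, so no difference here has a replicate check, and no p-value is given.

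Thymocytes that pass positive selection lose either CD4 or CD8 and spend several days in the medulla, where they are tested for self-reactivity before they leave. CD69 is a surface marker of recent T cell receptor signalling, Cd24a (heat stable antigen) marks less mature cells, and Qa2 is a class I-like surface protein that appears late. Egress requires the sphingosine-1-phosphate receptor S1pr1, whose gene is activated by the transcription factor Klf2, while CD69 protein pulls that receptor off the cell surface.

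Values are log2 expression per gene, and a difference is Qa2+ minus Qa2-. Medians over all 35557 probe sets were 6.71 and 6.61 on the WT Qa2- and Qa2+ arrays. A gene counted as above background when its mean over the 4 arrays exceeded 5.87, the 95th percentile of 1194 odorant and vomeronasal receptor genes, which T cells do not use, and 12591 genes did. The differences of those receptor genes had a standard deviation of 0.22, a measure of noise between dim values rather than between animals. Xist read 12.67 and 12.14 on the 2 WT arrays and the Y-linked genes Eif2s3y and Kdm5d read 4.29 to 5.05, below background, although males were labelled in the pool, and both WT arrays were alike in this.

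Cd69 and Cd4 followed the labels of the sort. Cd69 read 11.32 at the Qa2- stage and 10.55 at the Qa2+ stage, 1.71-fold lower. Among close relatives of the Qa2 genes, H2-Q4 and H2-Q5 differed by 0.63 and 0.84, H2-Q2 by -0.01, and H2-Q10 was below background, while H2-Q6 to H2-Q9 were not analysed here. Cd4 read 12.64 and 12.50 in Qa2- and Qa2+ cells, Cd8a 7.53 and 7.47, and Cd8b1 9.97 and 9.98. CD4 transcript was thus high on both arrays, and neither CD8 chain differed by more than 0.06. Both CD8 chains read above background on both arrays, although the cells were sorted as CD8-.

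Most genes differed little between the stages. The median difference over all genes above background was -0.06 and 93.6% of them lay within 1.5-fold. At 2-fold or more, 158 genes (1.25%) were apart, of which 66 (0.524%) had the higher and 92 (0.731%) the lower value on the Qa2+ array. At 1.5-fold or more the counts were 339 (2.69%) and 465 (3.69%). Of the 66 higher genes 4 were below background on the Qa2- array, and of the 92 lower genes 14 were below background on the Qa2+ array. The share of genes 2-fold apart was 1.93% at mean levels from 8 to 9 and 0.635% above 11. The higher share of the 2-fold genes was 41.8% as deposited, 49.1% after centring the arrays, 51.9% after removing the trend with level and 54.3% after quantile normalization, and at 1.5-fold it was 42.2%, 53.9%, 56.1% and 61.3%, so the balance between directions depends on the scaling. At the edge of 2-fold, Vipr1 (1.03) lay just inside and Socs2 (0.9997) just outside among higher genes, and Dusp5 (-1.005) just inside and Plxnd1 (-0.9962) just outside among lower ones. Of the receptor genes, 1.68% were at least 1.5-fold apart in either direction, against 6.39% of the genes above background.

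**Figure D1:**
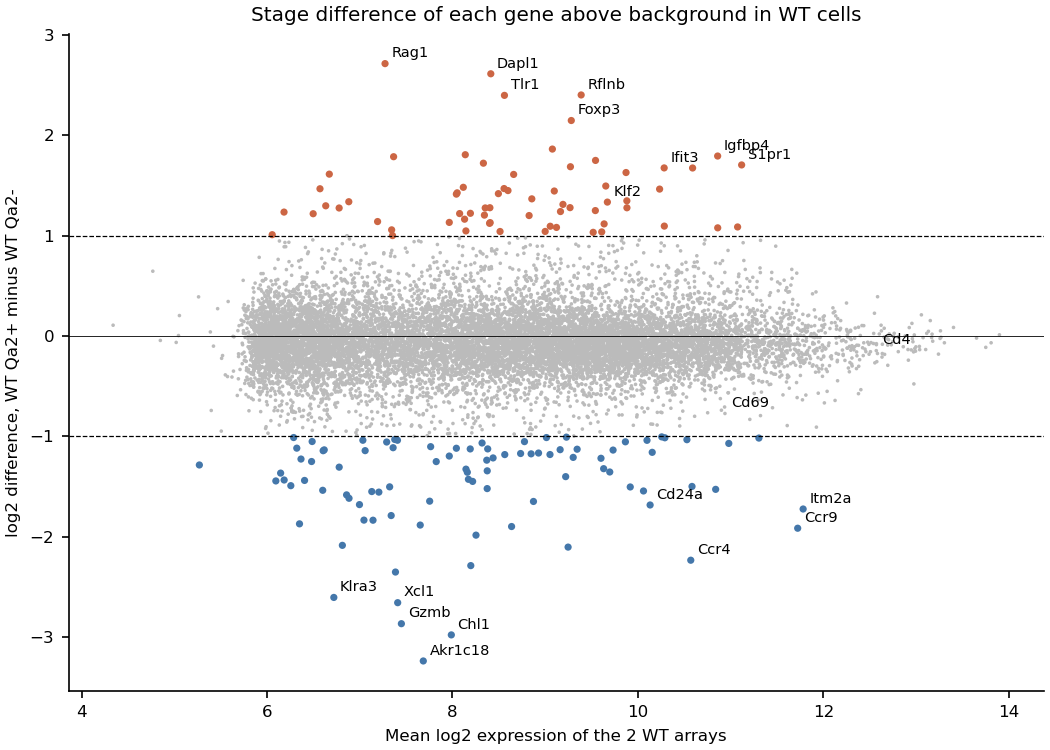
Each point is 1 of the 12591 genes above background, with the mean log2 expression of the 2 WT arrays on the x axis and the log2 difference (WT Qa2+ minus WT Qa2-) on the y axis. Orange and blue points are the 66 genes at least 2-fold higher and the 92 at least 2-fold lower in Qa2+ cells, and dashed lines mark 2-fold. Among the named genes, Rag1 (2.71) has the largest positive and Akr1c18 (-3.24) the largest negative difference.

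Among the 20 genes with the largest positive differences were receptors of egress, a recombinase, a regulatory T cell factor and an interferon-stimulated gene. Rag1, which encodes a subunit of the recombinase that assembles T cell receptor genes, read 5.92 on the Qa2- array and 8.63 on the Qa2+ array, 6.57-fold higher. Its Qa2- value lay just above the background threshold, and Rag2, its partner, read 4.60 and 5.53, below the threshold on both arrays. Of 14 markers of double-positive thymocytes above background, 6 were at least 1.5-fold higher, Rag1 among them, and 2 lower, Ccr9 and Cd24a. Over all genes above background, 2.69% were higher and 3.69% lower. The CD8 genes were level, and the part of double-positive cells was not tested. Dapl1, whose product resembles a death-associated protein, read 7.11 at the Qa2- stage and 9.72 at the Qa2+ stage, 6.12-fold higher. Rflnb, a filamin-binding protein of the actin cytoskeleton, read 8.19 on the Qa2- array and 10.59 on the Qa2+ array, 5.29-fold higher. Tlr1, a Toll-like receptor that pairs with Tlr2, read 7.36 at the Qa2- stage and 9.76 at the Qa2+ stage, 5.27-fold higher. Tlr2 itself differed by -0.70, so the members of this receptor pair lay on opposite sides of 0. Foxp3, the defining transcription factor of regulatory T cells, read 8.21 on the Qa2- array and 10.36 on the Qa2+ array, 4.43-fold higher. It was 1 of 6 regulatory T cell markers, of 15, that were at least 1.5-fold higher, and 1, Tnfrsf9, was lower (-0.82). The shares over all genes are those given above. In such bulk RNA, fewer cells of a type and less RNA per cell cannot be told apart. Igfbp4, a secreted binding protein of insulin-like growth factors, read 9.96 at the Qa2- stage and 11.76 at the Qa2+ stage, 3.47-fold higher.

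S1pr1 read 10.27 on the Qa2- array and 11.97 on the Qa2+ array, 3.26-fold higher, and its relative S1pr4 read 8.91 at the Qa2- stage and 10.40 at the Qa2+ stage, 2.82-fold higher. Both sphingosine receptors were thus higher at the mature stage, with S1pr1 already well above background in Qa2- cells. Sidt1, a transmembrane protein of the RNA transporter family, read 8.67 on the Qa2- array and 10.42 on the Qa2+ array, 3.36-fold higher. Clcf1, a cytokine of the interleukin 6 family, read 7.47 at the Qa2- stage and 9.20 at the Qa2+ stage, 3.30-fold higher. The remaining genes of the 20 were Sntb1 (1.86), Arpp21 (1.79), Ifit3 (1.68), n-R5s136 (1.67), St8sia6 (1.63), Lyz2 (1.61), Klhdc2 (1.61), Ggt5 (1.48), Man1c1 (1.47) and Golm1 (1.47), where each number is the log2 difference. Arpp21 is a phosphoprotein regulated by cyclic AMP, Klhdc2 a substrate receptor of ubiquitin ligases, Ggt5 a glutamyl transferase, Golm1 a Golgi membrane protein and Lyz2 the lysozyme of myeloid cells. Sntb1 is a syntrophin of the cortical cytoskeleton, St8sia6 and Man1c1 are Golgi enzymes that trim or cap glycans, and n-R5s136 is a copy of the multicopy 5S ribosomal RNA. Golm1 read 5.84 and 7.31 and Lyz2 5.87 and 7.48, both below the unrounded threshold in Qa2- cells, which puts Lyz2 and Golm1 at least 3.06-fold and at least 2.71-fold higher, measured against the threshold.

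The 20 largest negative differences held chemokine receptors, a chemokine, cytotoxic genes and regulators of signalling. Akr1c18, a steroid-converting reductase, read 9.30 on the Qa2- array and 6.07 on the Qa2+ array, 9.44-fold lower, the largest difference in either direction. Chl1, a neural cell adhesion molecule, read 9.48 at the Qa2- stage and 6.50 at the Qa2+ stage, 7.88-fold lower. Gzmb, a granule protease of cytotoxic cells, read 8.88 on the Qa2- array and 6.02 on the Qa2+ array, 7.29-fold lower, and the chemokine gene Xcl1 read 8.74 at the Qa2- stage and 6.08 at the Qa2+ stage, 6.31-fold lower. Both lay close to the background threshold in Qa2+ cells, and both belong to the innate-like marker list. That list split, with 7 of 13 members down by 1.5-fold or more and 2 up, Zbtb16 (1.16) among the latter. The matching shares over all genes were 3.69% down and 2.69% up. Ccr4, a chemokine receptor that draws newly selected thymocytes into the medulla, read 11.69 on the Qa2- array and 9.45 on the Qa2+ array, 4.70-fold lower. Ccr9, the receptor for the thymic and gut chemokine Ccl25, read 12.68 at the Qa2- stage and 10.77 at the Qa2+ stage, 3.77-fold lower, and remained well above background. Itm2a, a membrane protein induced by positive selection, read 12.64 on the Qa2- array and 10.92 on the Qa2+ array, 3.30-fold lower. Cd24a read 10.97 at the Qa2- stage and 9.29 at the Qa2+ stage, 3.21-fold lower. All 4 of these genes stayed above 9 on the log2 scale at the Qa2+ stage.

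Pik3r3, a regulatory subunit of phosphoinositide 3-kinase, read 9.25 on the Qa2- array and 7.26 on the Qa2+ array, 3.96-fold lower. Marcks, a substrate of protein kinase C at the membrane, read 9.59 at the Qa2- stage and 7.69 at the Qa2+ stage, 3.73-fold lower, and its relative Marcksl1 differed by -1.45. Slc15a1, a peptide transporter, read 10.30 on the Qa2- array and 8.20 on the Qa2+ array, 4.30-fold lower. Klra3, Zcchc12 and Dnah12 were below background in Qa2+ cells. Klra3, a receptor of the natural killer Ly49 family whose close paralogs can share probes, read 8.02 at the Qa2- stage and 5.42 at the Qa2+ stage, at least 4.46-fold lower. Dnah12, a dynein heavy chain, read 7.29 on the Qa2- array and 5.41 on the Qa2+ array, at least 2.68-fold lower, and differed by -0.97 with the mean over its probe sets in place of the brightest. The other genes of the 20 were Asb2 (-2.35), F13a1 (-2.29), Edaradd (-1.88), Fgf2 (-1.84), Klrd1 (-1.83) and Fgl2 (-1.68), with Zcchc12 at -2.09, given as log2 differences. Asb2 is an adaptor of ubiquitin ligases, F13a1 a chain of clotting factor XIII, Edaradd an adaptor of the ectodysplasin receptor, Fgf2 a growth factor, Klrd1 the CD94 chain of natural killer receptors and Fgl2 a secreted fibrinogen-like protein.

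**Figure D2:**
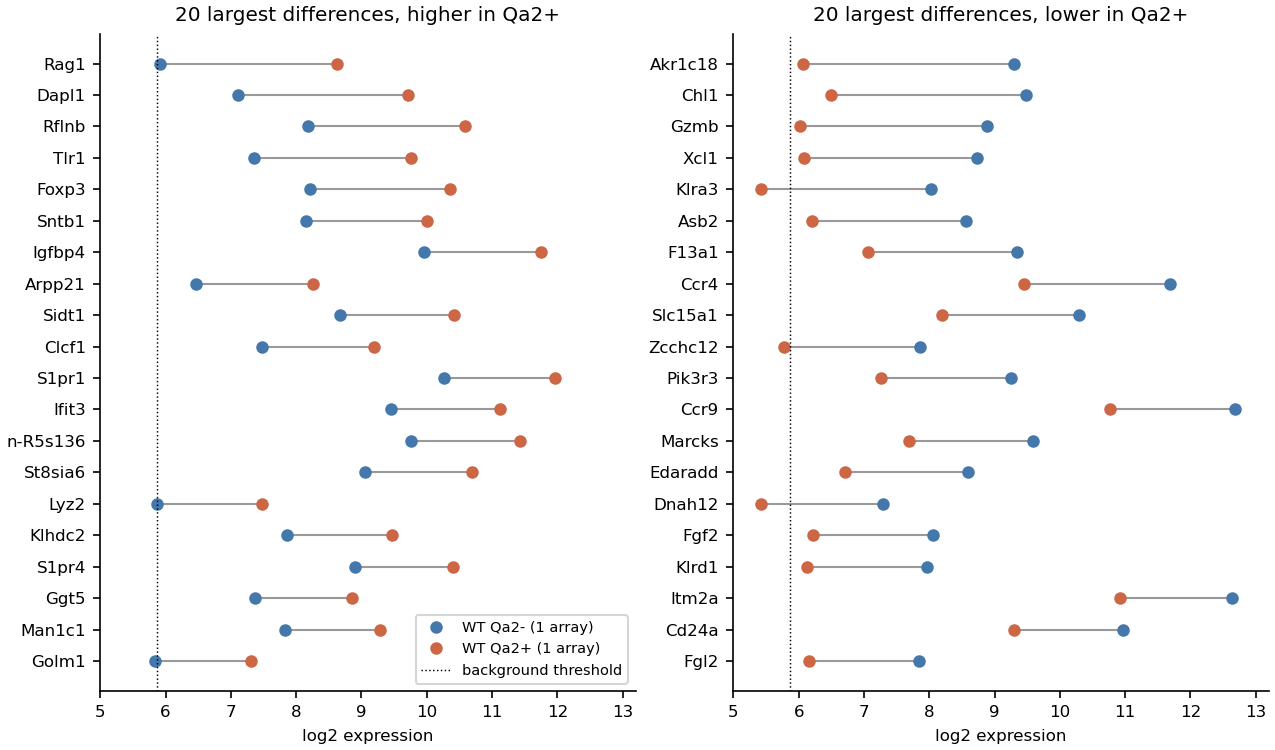
Log2 expression on the WT Qa2- array (blue) and the WT Qa2+ array (orange) of the 20 genes with the largest positive (left) and negative (right) differences, with the background threshold of 5.87 as a dotted line. Ccr9 and Itm2a are far above the threshold on both arrays, while Klra3, Zcchc12 and Dnah12 are below the threshold in Qa2+ cells.

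Most markers of the less mature stage were lower, and many markers of the mature stage higher. Of 22 less mature markers, all above background, 15 were at least 1.5-fold lower and 0 higher, with a median of -0.84 against -0.06 over all genes. At 1.5-fold, 3.69% of all genes above background were lower and 2.69% higher, and the list counts are set beside these shares. Besides Ccr4, Ccr9, Itm2a and Cd24a, Egr1 differed by -1.04 and Ccr8 by -1.01, and the proapoptotic gene Bcl2l11 (Bim), which kills cells during negative selection, by -0.89. Cd5 (-0.18), Cd2 (-0.19), Egr3 (-0.06) and Myb (0.10) differed by less than 1.5-fold. Of 26 mature markers, 17 were above background, and 9 of these were at least 1.5-fold higher and 0 lower, with a median of 0.73. Klf2 read 9.004 at the Qa2- stage and 10.34 at the Qa2+ stage, 2.52-fold higher. Ms4a4c and Ms4a6b, membrane proteins of the MS4A family, differed by 1.45 and 0.90, and the interleukin 6 receptor gene Il6ra by 1.08. Il7r, the survival cytokine receptor of naive T cells, differed by -0.30 and Foxo1, a factor upstream of Klf2, by 0.49, both within 1.5-fold. Of the list, 8 members, Ly6c1 among them, had no probe set of their own among those used here, and Cd55 was below background.

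**Figure D3:**
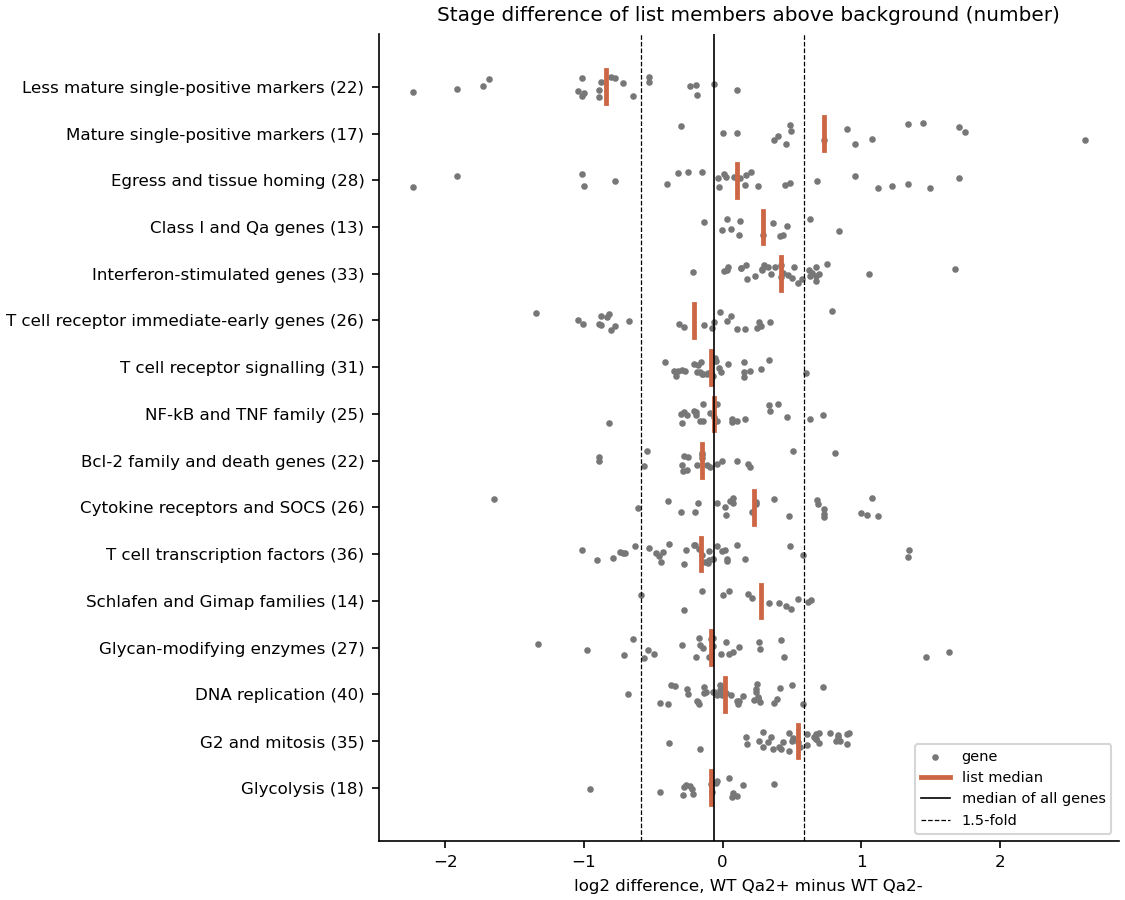
Log2 difference (WT Qa2+ minus WT Qa2-) of each list member above background, with the number of such members after the list name. Grey points are genes, orange bars list medians, the solid line the median of all genes (-0.06) and dashed lines 1.5-fold. The less mature list (-0.84) and the mature list (0.73) have the medians farthest from 0.

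Genes of egress and homing split in both directions. Of 28 above background, 7 were at least 1.5-fold higher and 5 lower, where 2.69% and 3.69% of all genes were, and the median was 0.10. The higher ones were S1pr1, S1pr4, Klf2, Nrp1 (1.22), Cxcr4 (1.12), Itgb7 (0.96) and Itga4 (0.68). Itga4 and Itgb7 encode the 2 chains of the gut-homing integrin, and they were higher together. The lower ones were Ccr4, Ccr9, Ccr8, Cd69 and the semaphorin receptor gene Plxnd1 (-0.9962). Ccr7, the receptor that leads cells into the medulla and into lymph nodes, read 12.32 and 12.28, and the motility genes Coro1a, Dock2, Dock8 and Rac2 differed by 0.01 to 0.13. Chemokine receptors thus differed one by one, with Cxcr4 higher, Ccr4, Ccr8 and Ccr9 lower and Ccr7 nearly level.

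Immediate-early genes of T cell receptor signalling were lower in part. Of 26 above background, 11 were at least 1.5-fold lower and 1 higher, where 3.69% and 2.69% of all genes were, and the median was -0.20. Nr4a2, an orphan nuclear receptor induced by antigen, read 9.05 on the Qa2- array and 7.70 on the Qa2+ array, 2.54-fold lower. Nr4a1 read 12.06 at the Qa2- stage and 11.16 at the Qa2+ stage, 1.86-fold lower, Egr2 differed by -0.88, and the phosphatase genes Dusp5 and Dusp6 by -1.005 and -0.88. Members of the AP-1 family lay apart from this, and Jun differed by 0.79, Fos by 0.28, Junb by -0.07 and Fosb by -0.02. The receptor complex and its kinases were nearly level, since 30 of 31 signalling genes lay within 1.5-fold, with a median of -0.09. Cd3e read 12.92 and 12.81, Zap70 10.60 and 10.52 and Lat 12.40 and 12.26, and the exception was the phosphatase gene Ubash3b, a negative regulator of the receptor, at 0.60.

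Interferon-stimulated genes leaned towards higher values, mostly within 1.5-fold. Of 33 above background, 10 were at least 1.5-fold higher and 0 lower, where 2.69% and 3.69% of all genes were, 32 lay above 0, and the median was 0.42. Ifit3, which binds foreign RNA together with other IFIT proteins, read 9.45 on the Qa2- array and 11.12 on the Qa2+ array, 3.19-fold higher. Oas1a, a sensor of double-stranded RNA, read 6.82 at the Qa2- stage and 7.87 at the Qa2+ stage, 2.08-fold higher, and differed by 0.59 when probe sets that list several genes also counted. Usp18, a feedback inhibitor of interferon signalling, differed by 0.75, and the guanylate-binding protein gene Gbp3, Cmpk2, Ifit2 and the transcription factor gene Irf7 by 0.69, 0.68, 0.68 and 0.64. Rsad2 (0.28), Mx2 (0.17) and Isg20 (-0.21) were within 1.5-fold. Short probes can be shared between IFIT or OAS paralogs, so values of single members are less certain. Antigen presentation genes differed less, with 2 of 13 class I and Qa genes at least 1.5-fold higher, 0 lower and a median of 0.29, and with the peptide transporter gene Tap1 at 0.44 and the immunoproteasome subunit gene Psmb9 at 0.41. Of the 23 genes in that list, 9 had no probe set of their own among those used here, H2-K1 and H2-D1 among them.

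Interferon acts through an element with 2 short repeats, here searched as GAAA, any 2 bases and GAAA on either strand in windows from 250 bases before to 50 after each RefSeq gene start (GRCm38.p6). Among the interferon-stimulated genes, 13 of the 23 with a window held it (56.5%), among the genes at least 2-fold higher in Qa2+ cells 7 of 54 (13.0%), among the genes at least 2-fold lower 2 of 71 (2.82%), and among all genes above background 360 of 10039 (3.59%). The 7 genes were Ifit3, Oas1a, Phf11a, Jaml, Ifi214, Slc28a2b and Gm12250. The 250 bases before the start are shown for the 3 listed genes with the largest difference that held the element, with the matched bases in capitals (a match on the opposite strand reads as TTTC repeats). The Ifit3 window spans chr19:34583279-34583528 on the plus strand:
Ifit3: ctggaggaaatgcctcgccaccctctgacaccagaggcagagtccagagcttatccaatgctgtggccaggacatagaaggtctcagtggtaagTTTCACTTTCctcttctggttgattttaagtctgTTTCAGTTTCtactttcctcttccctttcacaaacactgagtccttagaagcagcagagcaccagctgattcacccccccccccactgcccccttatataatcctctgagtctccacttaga
That of Oas1a spans chr5:120907526-120907775 on the minus strand:
Oas1a: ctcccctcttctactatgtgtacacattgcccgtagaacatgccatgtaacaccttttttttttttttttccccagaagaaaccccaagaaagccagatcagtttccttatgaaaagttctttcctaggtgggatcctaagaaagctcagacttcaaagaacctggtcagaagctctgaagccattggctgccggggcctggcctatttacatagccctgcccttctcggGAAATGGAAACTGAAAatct
That of Gbp3 spans chr3:142559794-142560043 on the plus strand:
Gbp3: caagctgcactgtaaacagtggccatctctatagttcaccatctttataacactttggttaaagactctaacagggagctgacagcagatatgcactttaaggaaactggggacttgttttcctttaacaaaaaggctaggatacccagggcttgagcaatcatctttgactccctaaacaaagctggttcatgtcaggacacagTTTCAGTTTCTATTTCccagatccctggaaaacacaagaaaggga
The matches end 112 and 146 bases before the start in Ifit3, 4 and 10 in Oas1a, and 29 and 35 in Gbp3, where each pair overlaps except in Ifit3.

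Other motifs were counted in the same windows, with both strands searched. The AP-1 site TGANTCA was held by 12 of 71 genes at least 2-fold lower (16.9%), by 5 of 54 at least 2-fold higher (9.26%) and by 6.00% of all genes above background. It was also held by 7 of 23 interferon-stimulated genes (30.4%) and by 1 of 19 immediate-early genes (5.26%), so its share did not follow the direction of the lists. Ccr4, Gzmb and Il17rb were among the 12, and the Ccr4 window is shown as an example chosen after the counts were seen, from chr9:114496545-114496794 on the minus strand, with the site in capitals:
Ccr4: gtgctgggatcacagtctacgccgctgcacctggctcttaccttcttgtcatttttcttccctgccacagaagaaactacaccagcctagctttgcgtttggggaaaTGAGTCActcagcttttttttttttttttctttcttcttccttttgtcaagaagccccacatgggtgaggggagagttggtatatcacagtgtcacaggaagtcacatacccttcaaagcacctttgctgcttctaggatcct
A KLF site, CCACACCC, was held by 9.26% of the higher genes, 5.63% of the lower and 4.60% of all, and an EGR site, GCGTGGGCG, by 0 of 54, by 3 of 71 (4.23%) and by 1.43%. The CRE site TGACGTCA was in 0 of 54 and 0 of 71 windows and in 3.54% of all, and the loose NF-kB pattern, GGG, any 5 bases and CC, was in 71.6% of all windows. The NF-kB pattern can overlap a KLF or EGR site, and no pattern contains another. A match describes letters in a window and not a site in use.

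Cytokine receptor genes and their feedback inhibitors leaned towards higher values. Of 26 above background, 9 were at least 1.5-fold higher and 2 lower, where 2.69% and 3.69% of all genes were, with a median of 0.22. Il18r1, a receptor chain for interleukin 18, read 7.99 on the Qa2- array and 9.03 on the Qa2+ array, 2.06-fold higher, and Il21r, Il2ra, Ifngr1, Il10rb and Il17ra differed by 0.73, 0.73, 0.73, 0.69 and 0.68. The SOCS inhibitors Socs3 and Socs2 differed by 1.12 and 1.00, or by 0.71 and 0.67 with the mean over their probe sets. Il12rb2, the signalling chain of the interleukin 12 receptor, went the other way, with 8.58 at the Qa2- stage and 6.93 at the Qa2+ stage, 3.13-fold lower. Among 25 genes of NF-kB and the TNF receptor family, 2 were higher and 1 lower at 1.5-fold, near the shares of 2.69% and 3.69% over all genes, with Traf1 at 0.72, Cd83 at 0.63 and Tnfrsf9 at -0.82. Their median was -0.06, like that of all genes, and turned to 0.02 after quantile normalization and 0.01 after removal of the trend with level.

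Transcription factors of the T cell programme were more often lower than higher. Of 36 above background, 2 were at least 1.5-fold higher and 7 lower, where 2.69% and 3.69% of all genes were. The median was -0.16, against -0.06 over all genes. The 2 higher ones were Kruppel-like factors. Klf3 read 9.21 on the Qa2- array and 10.55 on the Qa2+ array, 2.55-fold higher, and Klf2 differed by 1.33, whereas Klf10 differed by -0.74. Sox4 read 9.52 at the Qa2- stage and 8.51 at the Qa2+ stage, 2.02-fold lower, Id2, an inhibitor of E proteins, differed by -0.91, and Tox2 and Tox by -0.79 and -0.71. Zbtb7b (ThPOK) and Gata3, which direct the CD4 lineage, differed by -0.71 and -0.63 and still read 9.63 and 10.41 in Qa2+ cells. Runx1 (-0.26), Runx3 (-0.10), Ikzf1 (-0.15) and Bcl11b (-0.28) were within 1.5-fold.

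In the Bcl-2 family and death list, 19 of 22 genes lay within 1.5-fold, with a median of -0.15. Bcl2l11 and the survival gene Bcl2l1 (Bcl-xL) read 10.40 and 9.51 and 8.89 and 8.00 in Qa2- and Qa2+ cells, and the survival kinase gene Pim1 read 8.52 on the Qa2- array and 9.33 on the Qa2+ array, 1.76-fold higher. Bcl2 and Mcl1 differed by -0.26 and -0.18. The Schlafen and Gimap families, linked to T cell quiescence and survival, had a median of 0.27, with 2 of 14 genes at least 1.5-fold higher and 1 lower, a small excess over 2.69% and 3.69% of all genes, Slfn8 at 0.62, Gimap3 at 0.63 and Gimap4 at -0.59. Glycan-modifying enzymes had a median of -0.09 over 27 genes, and 2 were higher and 4 lower at 1.5-fold, where 2.69% and 3.69% of all genes were. The lower ones included the sulfotransferase gene Chst2, which read 8.81 at the Qa2- stage and 7.48 at the Qa2+ stage, 2.51-fold lower, and the sialyltransferase genes St3gal2 (-0.98) and St6gal1 (-0.71), while St8sia6 and Man1c1 were higher. Of 18 glycolysis genes, 17 lay within 1.5-fold, and the exception was Ldhb, a lactate dehydrogenase chain, at -0.96.

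Part of the genes of G2 and mitosis were higher in Qa2+ cells, whereas nearly all genes of DNA replication lay within 1.5-fold. Of 35 mitotic genes above background, 16 were at least 1.5-fold higher, 19 lay within 1.5-fold and 0 were lower. Over all genes, 2.69% were higher and 3.69% lower. Of the 35, 33 lay above 0, and the median was 0.54. Ccna2, the cyclin that acts from S phase into G2, read 9.28 on the Qa2- array and 10.18 on the Qa2+ array, 1.87-fold higher. Ube2c and Cdc20, which drive the exit from mitosis, differed by 0.91 and 0.83, the spindle protein gene Nusap1 by 0.89, Ccnb2 by 0.85 and the checkpoint kinase gene Bub1 by 0.83. No mitotic gene reached 2-fold. Of 40 replication genes, 1 was higher (Pole2, 0.73) and 1 lower (Rfc3, -0.68) at 1.5-fold, with a median of 0.02, and Mcm5 and Pcna differed by -0.06 and 0.10.

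The array also carries probe sets at microRNA genes, which read their precursor transcripts and not the mature microRNA. These genes were singled out after their values were seen. Of 103 microRNA genes above background, 3 were at least 1.5-fold higher and 4 lower, which is near the shares of 2.69% and 3.69% over all genes. Of the 4 lower ones, 3 belong to the miR-181 family, which is abundant in thymocytes before selection and raises the sensitivity of T cell receptor signalling. Mir181b-2 read 8.94 on the Qa2- and 7.82 on the Qa2+ array, Mir181b-1 read 9.73 and 8.73, and Mir181a-2 read 7.55 and 6.51. Mir181a-1 read 5.98 and 5.45, the latter below background. These hairpins come from the clusters on chromosomes 1 and 2, and 3 of the 4 precursors passed 1.5-fold. The third cluster, on chromosome 8, was level, with Mir181c at -0.10 and Mir181d at 0.19. The mature 5p microRNAs of all 3 clusters share the seed, bases 2 to 8, given in capitals (RefSeq, GRCm38.p6):
miR-181a-5p: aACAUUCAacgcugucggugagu
miR-181b-5p: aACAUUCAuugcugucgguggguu
miR-181c-5p: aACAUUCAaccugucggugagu
miR-181d-5p: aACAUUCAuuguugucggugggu
The fourth lower gene was Mir142, at 10.11 and 9.41. Among the 3 higher genes, Mir15b and Mir16-2 lie side by side on chromosome 3 and read 7.67 and 6.26 at the Qa2- stage and 8.35 and 6.94 at the Qa2+ stage, and their 5p products also share a seed:
miR-15b-5p: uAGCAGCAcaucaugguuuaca
miR-16-5p: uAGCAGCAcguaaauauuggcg
The third, Mir342, differed by 0.69.

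Markers of other cell types that the sorts could hold differed with the stages. Their counts at 1.5-fold, here and in the next paragraph, stand beside 2.69% higher and 3.69% lower over all genes. Of 14 double-positive thymocyte markers above background, 6 were at least 1.5-fold higher and 2 lower, with a median of -0.03 that turned to 0.03, 0.08 and 0.04 after centring, quantile normalization and removal of the trend. Rag1, Arpp21, Smad7 (1.28), Aqp11 (1.13), Dntt (0.99) and Ptcra (0.64) were higher, Ccr9 and Cd24a lower, and Cd8a and Cd8b1 level. Their summed linear level (2 raised to each log2 value, added over the list) was 15671 on the Qa2- array and 10643 on the Qa2+ array, and without Ccr9 and Cd24a, which are also less mature single-positive markers, it was 7093 and 8276, a choice added once the data had been seen. Of 15 regulatory T cell markers, 6 were higher and 1 lower, with a median of 0.29 and summed levels of 17255 and 17367. Foxp3, Lrrc32 (1.45), Nrp1, Socs2, Il2ra and Ctla4 (0.60) were higher, whereas Gpr83 (-0.20), Izumo1r (-0.05) and Tnfrsf4 (-0.14) were within 1.5-fold and Tnfrsf9 was lower. The part of either cell type in these differences was not tested.

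Innate-like markers split, with 7 of 13 above background at least 1.5-fold lower, 2 higher, 4 within 1.5-fold, a median of -0.60 and summed levels of 11139 in Qa2- and 7154 in Qa2+ cells. Besides Gzmb, Xcl1 and Klrd1, Nkg7 read 10.29 at the Qa2- stage and 8.97 at the Qa2+ stage, 2.50-fold lower and Cxcr6 read 8.56 on the Qa2- array and 7.37 on the Qa2+ array, 2.29-fold lower. Zbtb16 (PLZF), which defines innate-like T cells, read 7.55 at the Qa2- stage and 8.71 at the Qa2+ stage, 2.24-fold higher, opposite to the granule and chemokine genes, and Klrb1c was below background. Of 12 CD8 single-positive markers, 4 were lower and 0 higher, namely Xcl1, Klrd1, Nkg7 and Cd160 (-0.74), with summed levels of 6876 and 6389. Among 13 effector or recirculating markers, 5 were higher and 1 lower, with a median of 0.10 and summed levels of 19428 and 22009. Crip1 and Lgals1 differed by 1.09 and 0.85 while Cd44 differed by -0.45 and S100a4 by 0.12. Among myeloid and dendritic markers, 9 of 16 were above background and 3 of these were higher, Lyz2, Ctss (0.84) and H2-Aa, which was below background in Qa2- cells (5.66) and at least 1.67-fold higher, with 0 lower, a median of 0.35 and summed levels of 1923 and 2922, while Csf1r, Itgax, Spi1 and Cd14 were below background. Of 11 B cell markers with a probe set, 2 were above background and went opposite ways, Cd74 by -1.05 and Cd79b by 0.34. Cd79a, Ms4a1 and Pax5 were below background, and the summed levels of the list were 1091 and 833. Summed levels were 1772 and 1153 for gamma-delta T cells (0 of 6 higher, 1 lower, median 0.12), 1120 and 757 for erythroid markers (0 of 3 higher, 1, Tfrc, lower, median -0.05) and 2949 and 3195 for thymic stroma (0 of 11 higher or lower, median 0.01). The part of these cells in the stage differences was not tested. Without the genes of all marker lists of other cells, a choice added once the data had been seen, the count of genes 2-fold or more apart was 55 higher and 83 lower, against 66 and 92 with them.

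**Figure D4:**
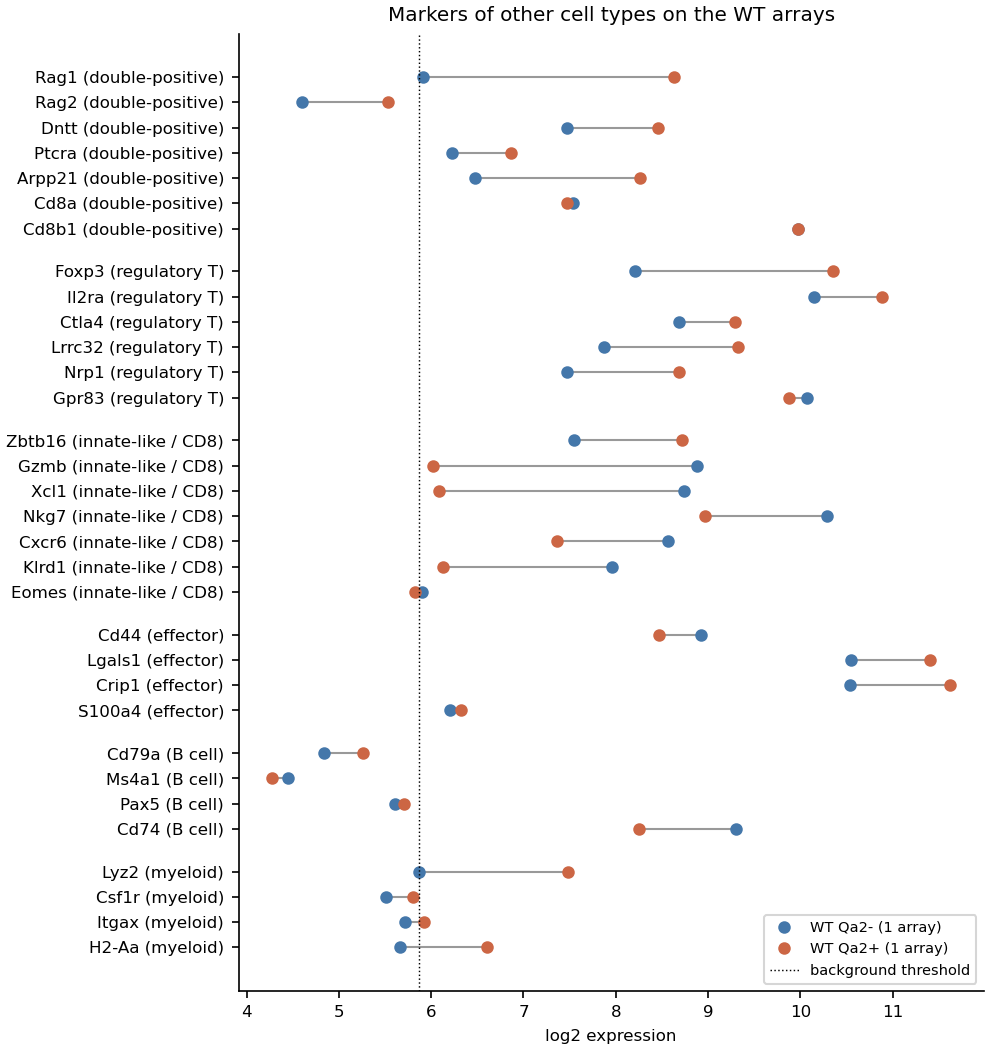
Log2 expression of markers of other cell types on the WT Qa2- array (blue) and the WT Qa2+ array (orange), with the list named after each gene and the background threshold of 5.87 as a dotted line. Rag1, Foxp3 and Lyz2 are higher in Qa2+ cells, Gzmb and Xcl1 lower, Cd8a and Cd8b1 level, and Cd79a, Ms4a1 and Pax5 below the threshold.

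The same stage difference in the miR-142-/- pools uses other mice and other arrays, and differs in genotype, so it is not a replicate. Of the 66 genes at least 2-fold higher in WT Qa2+ cells, 50 (75.8%) were at least 1.5-fold higher there, against 2.65% of all genes above background, and 65 lay above 0. Of the 92 lower genes, 74 (80.4%) were at least 1.5-fold lower, against 3.64% of all, and 88 lay below 0. Rflnb (2.40 in WT and 2.05 in miR-142-/-), Ifit3 (1.68 and 1.66), St8sia6 (1.63 and 1.57) and Akr1c18 (-3.24 and -2.98) differed by nearly the same amount in both genotypes. The difference of S1pr1 was 1.71 in WT and 2.95 in miR-142-/-, and that of Klf2 1.33 and 0.95. Across the 12591 genes the differences in the 2 genotypes correlated at 0.66, and across the receptor genes at 0.47, which is given as a description of these arrays. A difference between the genotypes could not be tested with 1 array per group. Among genes open to the naming rule, 60 were at least 2-fold higher and 86 at least 2-fold lower in WT. Of these, 20 differed by less than 0.4 in either direction in miR-142-/-. The share of all genes within 0.4 there was not counted. Dapl1 differed by 2.61 and 0.34, Igfbp4 by 1.79 and 0.37, Sidt1 by 1.75 and 0.32, and Ccr9 by -1.92 and -0.38. For Ccr9 the miR-142-/- arrays read 12.73 in Qa2- and 12.35 in Qa2+ cells, so the level stayed high at the mature stage. Gzmb, by contrast, was below background on both miR-142-/- arrays (5.62 and 5.43), which leaves no difference to measure there. The same held for Slamf7 (5.35 and 5.49), and Cxcr6 lay near the threshold on both (6.21 and 6.07). Of 35 mitotic genes, 16 were at least 1.5-fold higher in WT and 4 in miR-142-/-, with medians of 0.54 and 0.07. The mitotic genes named above read lower on the miR-142-/- arrays than on the WT arrays. In miR-142-/- Qa2- and Qa2+ cells Ccna2 read 6.98 and 7.42, Nusap1 6.19 and 6.32, and Bub1 5.37, below background, and 6.00. Differences near the threshold are compressed, which limits this comparison of counts. Of 26 immediate-early genes, 11 were lower in WT and 13 in miR-142-/-, with medians of -0.20 and -0.58. Of 33 interferon-stimulated genes, 10 were higher in WT and 3 in miR-142-/-, with medians of 0.42 and 0.25. The maturation lists differed less between genotypes, with medians of 0.73 and 0.72 for mature and -0.84 and -0.68 for less mature markers.

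**Figure D5:**
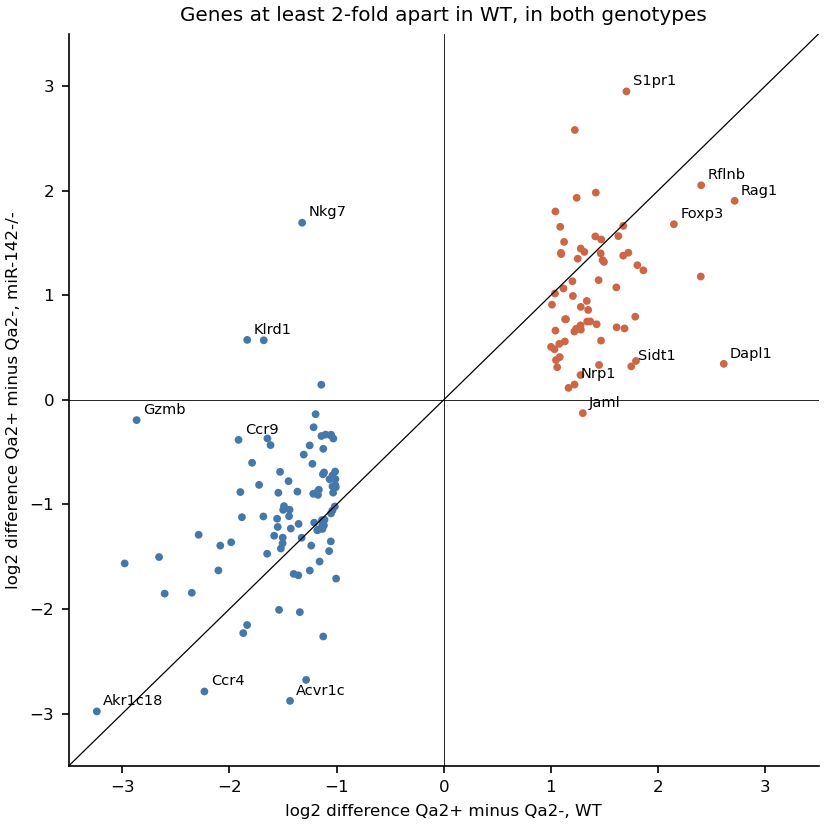
Log2 difference (Qa2+ minus Qa2-) in WT on the x axis and in miR-142-/- on the y axis for the 158 genes at least 2-fold apart in WT, orange where higher and blue where lower in WT Qa2+ cells, with a line of equal values. Of the 66 higher genes, 65 lie above 0 on the y axis, Dapl1 and Sidt1 lie far to the right of the line, and Nkg7 lies on the opposite side of 0.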

How the data were processed

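Affymetrix Mouse Gene 1.0 ST arrays were deposited as log2 expression values per probe set. The tools RMA and Partek appear in the submitters' processing notes, without versions in the sources used here. RMA usually equalises array distributions, but the deposited arrays still differed in their medians (6.71 and 6.61 for WT Qa2- and Qa2+). The median difference was -0.06 over genes above background and -0.03 over receptor genes. An offset from scaling can therefore remain in the differences, and it need not be the same for all genes. Of 35557 probe sets, 21789 listed 1 gene and were used, 1621 listed several and 12147 none. Entrez IDs led from 21698 of these to a current record (GRCm38.p6). Where a gene had several probe sets, as 999 of 19938 did, the one brightest on average was taken. All further steps used Python 3.11.15, pandas 2.3.3, numpy 2.4.6 and statsmodels 0.14.6.

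The fold is 2 raised to the log2 difference. Where the dimmer value lay below the threshold, the fold is a lower bound against it. With 1 array per group no test could be made, and the small number of arrays limits how precise any value is. In simulated data with known shifts, the difference between arrays returned the shift on average. This checks the subtraction only, and fold bounds, scaling, lists and motifs were not tested in this way.

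Members, gene lists and motifs were chosen with earlier results of these data known. The text names the genes that check the labels, the 20 largest differences in each direction, and up to 6 members per list with the largest differences (in marker lists of other cells, any member). Predicted genes, clones, odorant receptors and antigen receptor segments were left out. Other members, microRNA genes and families were named after their values were seen. The alternatives were no background filter, a stricter one (99th percentile), one on the brighter WT array, centring, quantile normalization, removal of a lowess trend, the mean over probe sets, and probe sets with several genes named by the first. Coordinates are those of RefSeq promoter windows only, since the files name no build.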

Additional observations from a re-analysis of the deposited data

Results flagged for a closer look

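For 4 genes whose mean over the arrays lay above background, the log2 differences of the stages pointed in opposite directions in WT and miR-142-/- cells, each at least 1.5-fold as deposited. With 1 array per group this was not tested, and in Ccl3 and Sfrp2 it rests on WT values below background. Nkg7, a granule membrane protein gene, differed by -1.32 in WT and 1.69 in miR-142-/-, as its value went from 10.29 to 8.97 in WT and from 6.83 to 8.52 in miR-142-/- cells. Itgb8, an integrin chain gene, differed by 0.76 in WT (6.53 and 7.29) and -0.79 in miR-142-/- (6.67 and 5.88). Sfrp2, a secreted Wnt inhibitor gene, differed by -0.95 in WT and 0.60 in miR-142-/-, but its WT values were 5.98, just above the threshold of 5.87, and 5.03, below it, so the size of the WT difference is not measured. Ccl3, a chemokine gene, differed by -0.74 in WT, where both values (5.77 and 5.03) were below background and leave no difference to measure, and by 1.77 in miR-142-/- (5.72 and 7.49).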

How the results depend on the processing

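No paired analysis was possible because each group is 1 array and the labels give no replicate numbers. Of 1218 values computed under the alternatives, 1209 moved by less than the scatter of receptor genes (0.22), or, for counts of genes, by less than 1.5 times, and 0 turned a value of at least 1.5-fold around. Quantile normalization lowered the genes at least 1.5-fold lower from 465 to 309, and raised those at least 1.5-fold higher from 339 to 489. The innate-like median moved from -0.60 to -0.91 when the brighter WT array set the filter, the B cell median from -0.36 (2 genes) to 0.11 without a filter, and with the 99th percentile the myeloid median moved from 0.35 to 0.60 and the erythroid median (3 genes) from -0.05 to -0.82. In these 4 cases fewer or more genes entered the median. Of 1000 values for 200 named genes, 4 moved, all through the choice of probe set, namely Dnah12, Oas1a, Socs3 and Socs2. Values near the threshold of 5.87 are compressed, and sizes there are the least certain.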

Other observations

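Gene families were counted after the values were seen, and their counts include members of the lists above, such as Klf2, S1pr1, Itgb7, Traf1 and Dusp5. The family counts at 1.5-fold, here and in the next paragraph, stand beside 2.69% higher and 3.69% lower over all genes. Of 15 Kruppel-like factors above background, Klf2 and Klf3 were at least 1.5-fold higher and Klf10 and Klf8 (-0.59) lower, with a median of 0.01. Among 4 sphingosine-1-phosphate receptors above background, S1pr2 differed by -0.71 and S1pr5 by -0.24, opposite to S1pr1 and S1pr4. Of 9 MS4A genes, 3 were at least 1.5-fold higher, and Ms4a6c read 8.54 on the Qa2- array and 9.79 on the Qa2+ array, 2.36-fold higher. Of 6 TNF receptor associated factors, Traf5 read 8.17 at the Qa2- stage and 9.54 at the Qa2+ stage, 2.58-fold higher, and Traf1 was the other one at least 1.5-fold higher. TNF family ligands differed in both directions. Tnfsf8 (CD30 ligand) differed by 0.97, while Tnfsf11 (RANK ligand), which single-positive thymocytes use to signal to medullary epithelium, read 10.30 on the Qa2- array and 9.16 on the Qa2+ array, 2.20-fold lower, and Cd40lg read 10.37 at the Qa2- stage and 9.02 at the Qa2+ stage, 2.56-fold lower.

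Of 18 dual-specificity phosphatases above background, 4 were at least 1.5-fold lower and 0 higher, with a median of -0.17 and with Dusp22 at -0.85 and Dusp12 at -0.68 besides Dusp5 and Dusp6. The activators of RAS differed one by one, with Rasgrp4 at -1.65, Rasgrp1 at -0.16 and Rasgrp2 at 0.80. Of 21 integrin subunits, 4 were at least 1.5-fold higher, namely Itgb7, Itgb8, Itga6 (0.74) and Itga4, and 3 lower, namely Itga5 (-0.64), Itga8 (-0.59) and Itgb1 (-0.59). Housekeeping families were level. All 50 cytosolic ribosomal protein genes lay within 1.5-fold, from -0.37 to 0.53, and so did 33 of 34 complex I subunits, the exception being Ndufc1 at -0.80. Klhdc1 and Klhdc2, substrate receptors of ubiquitin ligases, differed by 1.28 and 1.61.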
